A study of Homo sapiens with 8 samples.

Results

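The 10 genes described here make or remove superoxide, hydrogen peroxide and nitric oxide. They are the superoxide dismutases SOD1, SOD2 and SOD3, the catalase gene CAT, the oxidase genes NOX4, CYBA, CYBB and DUOX2, and the nitric oxide synthases NOS2 and NOS3. They were taken by gene name from the FPKM values (sequenced fragments per length of transcript and per mapped fragment) of 60558 genes in 8 RNA-seq libraries of human intestinal epithelial cells (hIECs) grown in 2D. The cells had been differentiated from the human embryonic stem cell line H9, which is an established line. Together they hold 11 entries, because SOD2 is listed under 2 Ensembl identifiers. There were 4 groups with 2 libraries each. Normal hIECs received neither cytokines nor particles, and normal hIECs with PM10 received 100 μg/ml of PM10, coarse airborne particulate matter, for the last 7 days. Inflamed hIECs received 50 ng/ml of interferon gamma (IFNγ) and 50 ng/ml of tumor necrosis factor alpha (TNFα) for 10 days, and inflamed hIECs with PM10 received the same cytokines for 10 days with 100 μg/ml of PM10 for the last 7. The sample labels give 10 days of treatment for every group. All 8 libraries came from 1 cell line without immune cells in the culture, and nothing in the labels says that the 2 libraries of a group were separate cultures, so p-values measure the spread between these libraries, which may be technical.

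Superoxide is formed when an electron is passed to oxygen, mainly by the respiratory chain in mitochondria and by NADPH oxidases in membranes. Superoxide dismutases turn it into hydrogen peroxide, SOD1 with copper and zinc in the cytosol, SOD2 with manganese in the mitochondrial matrix, and SOD3 with copper and zinc outside the cell. Catalase, in peroxisomes, splits hydrogen peroxide into water and oxygen. NOX4 and CYBB are catalytic oxidase subunits that need the small membrane subunit p22phox, the product of CYBA. CYBB is best known from phagocytes, NOX4 from mesenchymal and kidney cells, and DUOX2 from the surface of intestinal epithelium, where it releases hydrogen peroxide toward the lumen. NOS2 is the cytokine-inducible nitric oxide synthase and NOS3 the endothelial form. SOD2 is a textbook TNFα-responsive gene.

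The label of intestinal epithelium was held against marker genes. Of 7 intestinal markers, CDX2, VIL1, LYZ, MUC2 and CHGA were listed at 0 FPKM in all 8 libraries, and SOX9 and LGR5 were present. SOX9, the most abundant of them, had 14.97 and 13.5 FPKM in the normal libraries and 3.88 and 3.95 in the inflamed libraries, a fall of -1.63 with cytokines on the log2 scale (adjusted p = 1.23e-06). LGR5 went the other way, at 2.63 and 2.01 FPKM in the normal libraries, 5.68 and 5.26 in the inflamed libraries and 8.28 and 7.92 in the inflamed libraries with PM10, a rise of 0.97 with cytokines (adjusted p = 0.00013) and of 0.49 with PM10 in inflamed hIECs (adjusted p = 0.0172). The summed level of the list was 17.6 and 15.5 FPKM, 16.4 and 15.9, 9.56 and 9.22, and 11.9 and 11.6 in the order normal, normal with PM10, inflamed and inflamed with PM10. Among 6 epithelial markers KRT8, a keratin of simple epithelia, was the most abundant with a mean of 289 FPKM over the libraries, but EPCAM, CDH1 and CLDN4 stayed under the minimum level for a test. All 9 mesenchymal markers were present, led by TAGLN, an actin-binding protein of smooth muscle and fibroblasts, with a mean of 1079 FPKM, and their summed level was 3994 and 3996 FPKM in the normal libraries, 3315 and 3337 with PM10, 4958 and 5022 in the inflamed libraries, and 4545 and 4530 in the inflamed libraries with PM10. The mesenchymal list was split. With cytokines alone LUM, TAGLN, ACTA2 and COL1A1 rose and PDGFRA, PDGFRB and COL1A2 fell, where 25.9% of all tested genes rose and 30.3% fell. With PM10 in inflamed hIECs LUM rose and 5 of the 9 fell, where 6.22% of all tested genes rose and 9.02% fell. CDX2, VIL1, LYZ, MUC2 and CHGA, markers of the labelled cell type, were thus absent from these values at this depth, and VIM, TAGLN, ACTA2, COL1A1 and COL1A2 were the most abundant markers of all lists. KRT8 and KRT18 were lower with cytokines in both comparisons, KRT8 by -0.82 without and by -0.96 with PM10 on the log2 scale. Of all tested genes, 30.3% and 39.6% fell in these comparisons. KRT19, the other epithelial marker tested, was not called in limma, at -0.38 without PM10 (adjusted p = 0.192) and 0.03 with it (adjusted p = 0.92). The summed level of the 6 epithelial markers was 641 and 652 FPKM in the normal libraries, 598 and 636 with PM10, 352 and 347 in the inflamed libraries and 305 and 287 with both treatments. The part that a change in cell makeup has in the results below was not tested, and in bulk RNA fewer cells of a type and less RNA per cell cannot be told apart.

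**Figure D1:**
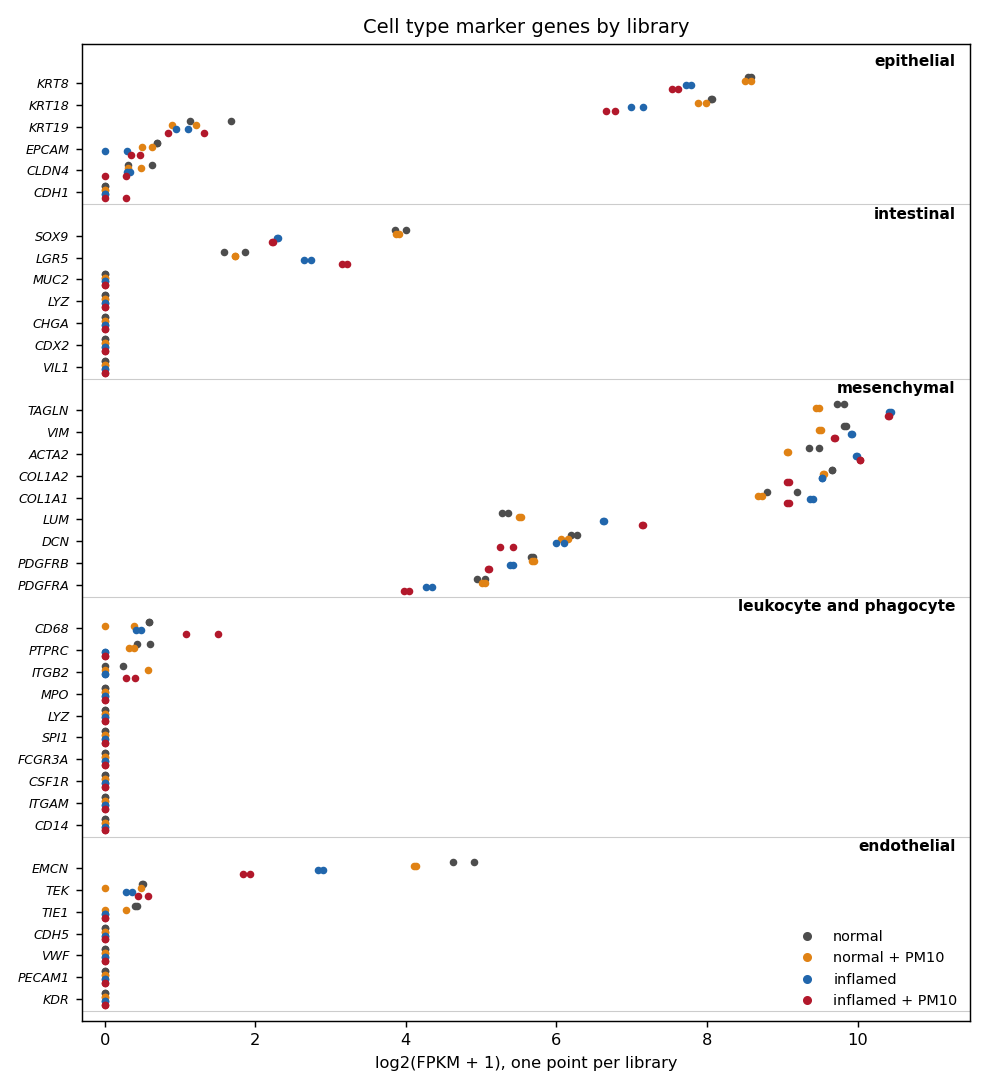
Marker genes of 5 cell types on the horizontal axis of log2(FPKM + 1), with 1 point per library colored by group. By mean level TAGLN, VIM, ACTA2, COL1A2 and COL1A1 lie farthest to the right, followed by KRT8, and 5 of the 7 intestinal markers, 7 of the 10 leukocyte markers and 4 of the 7 endothelial markers sit at 0 in all 8 libraries.

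By GENCODE release 44 on GRCh38, the cytosolic dismutase gene SOD1 (ENSG00000142168) lies at chr21:31659666-31668931 on the plus strand and the extracellular SOD3 (ENSG00000109610) at chr4:24789912-24800842 on the plus strand. SOD2 lies at chr6:159669069-159762529 on the minus strand and is listed in the files as ENSG00000112096, an identifier that release 44 has replaced, and as ENSG00000285441. CAT (ENSG00000121691) lies at chr11:34438934-34472060 on the plus strand, and NOX4 (ENSG00000086991) lies farther along the same chromosome at chr11:89324353-89498187 on the minus strand. CYBA (ENSG00000051523) lies at chr16:88643275-88651083 on the minus strand. The genes CYBB (ENSG00000165168, chrX:37780018-37813461, plus strand), DUOX2 (ENSG00000140279, chr15:45092650-45114172, minus strand), NOS2 (ENSG00000007171, chr17:27756766-27800529, minus strand) and NOS3 (ENSG00000164867, chr7:150991017-151014588, plus strand) were at or near 0. The libraries carry no strand information, so reads of overlapping exons cannot be assigned with certainty. Of the exon bases of SOD2, 7.78% also lie in exons of ACAT2, WTAP or SOD2-OT1, and of those of NOS3, 13.3% lie in exons of ATG9B. SOD1, SOD3, CAT, NOX4, CYBA, CYBB and DUOX2 shared no exon base with another gene.

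SOD2 and CYBA were the genes of the set that rose both with cytokines and, in inflamed hIECs, with PM10, so the DNA before their start sites is shown. The sequences are from RefSeq on GRCh38.p14, given 5′ to 3′ on the strand of the gene, from base -250 to the last base that lies in no annotated exon of the gene, base -38 for SOD2 and base -31 for CYBA. Capitals mark matches to the letters of a kappa-B site, GGG and CC set apart by 5 bases of any kind, on either strand. This pattern is loose and was found in 58.6% of 34943 promoter windows of 300 bases, so a match is a description of the letters only.
SOD2, chr6:159693279-159693491, minus strand: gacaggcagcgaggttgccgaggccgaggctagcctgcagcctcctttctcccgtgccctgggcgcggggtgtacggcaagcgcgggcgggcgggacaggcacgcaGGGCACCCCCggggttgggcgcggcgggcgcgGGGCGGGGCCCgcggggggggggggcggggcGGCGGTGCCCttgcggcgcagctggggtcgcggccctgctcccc
CYBA, chr16:88651084-88651303, minus strand: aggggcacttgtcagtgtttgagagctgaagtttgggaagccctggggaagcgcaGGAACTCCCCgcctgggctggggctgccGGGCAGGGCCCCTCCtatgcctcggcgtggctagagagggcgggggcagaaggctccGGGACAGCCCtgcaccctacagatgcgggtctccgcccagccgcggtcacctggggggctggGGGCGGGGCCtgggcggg
In the SOD2 stretch, 81.7% of the bases were G or C and matches began at 4 places, at bases -144, -112, -111 and -81, the middle ones overlapping. In the CYBA stretch, 71.8% were G or C and matches began at 6 places, at -195, -167, -166, -162, -110 and -48. In the whole windows, CYBA held 7 such places, SOD2 held 4, CAT, NOX4 and NOS3 held 1 each, DUOX2 held 2 and SOD3 none. The NOS3 window belongs to a start site 2765 bases from the GENCODE start of the gene. The letters TTCNNNGAA of a GAS element, in 7.66% of all windows, and TGACNNNGC of an antioxidant response element, in 13.3%, matched in none of the 8 genes with a window. The letters of an ISRE core, a pair of GAAA set apart by 2 bases of any kind and found in 3.57% of all windows, matched at 2 places before CYBB and in no other gene of the set. SOD1 and NOS2 had no window in the table used.

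The 10 genes spanned a wide range of levels. By mean FPKM over the 8 libraries the order was SOD1 (139), CYBA (53.7), SOD2 (39.6), NOX4 (21.2), SOD3 (1.09), CAT (0.965) and NOS3 (0.287), with CYBB, DUOX2 and NOS2 listed at 0 in every library. The order of SOD3 and CAT turned with the group, with SOD3 above CAT in all 4 libraries without cytokines and below it in both inflamed libraries with PM10. In the inflamed libraries SOD3 was below CAT in the first and above it in the second. The range of SOD2, from 5.15 to 93.3 FPKM, took in that of CYBA and of NOX4. SOD1, at 119 FPKM or more in each library, was above every other gene of the set everywhere. The place of SOD2 changed with the group, below NOX4 in all 4 libraries without cytokines and above NOX4 in all 4 with them, and above CYBA in the first inflamed library and in both inflamed libraries with PM10. Of the 10 genes 6, namely SOD1, SOD2, SOD3, CAT, NOX4 and CYBA, passed the minimum of 1 FPKM in at least 2 libraries and were tested.

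**Figure D2:**
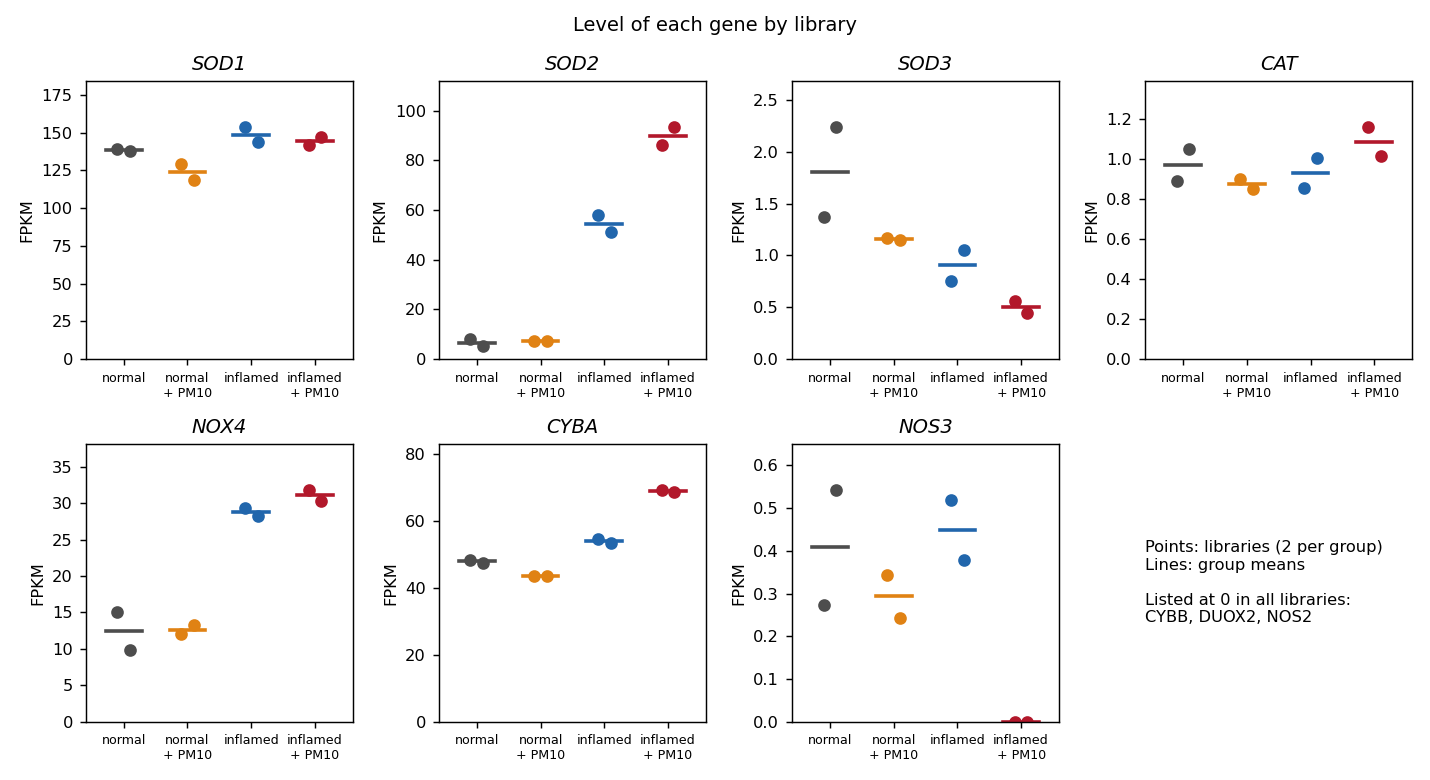
FPKM of 7 genes in each library (points) by group, with the group mean as a line and an axis from 0 for each gene. SOD2 and NOX4 separate the 4 libraries with cytokines from the 4 without, CYBA is highest at 69.3 and 68.9 FPKM in inflamed hIECs with PM10, and NOS3 is at 0 there.

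Against all 14206 genes tested with limma on log2(FPKM + 1), the 6 genes showed the following counts at a Benjamini-Hochberg adjusted p under 0.05. PM10 in normal hIECs changed 0 of 6, where 9.23% of all tested genes were called (5.51% higher and 3.72% lower). Of the 6, 2, SOD1 and CYBA, had an unadjusted p under 0.05. When only the groups compared were fitted, PM10 in normal hIECs changed 0 of the 6, beside 23 of all 14206 genes. Without the first normal library 3 of the 6 were called there, beside 2627 of all 14206 genes in place of 1311, SOD2 (0.43), NOX4 (0.32) and SOD3 (-0.59). Cytokines without PM10 changed 4 of 6, where 56.2% of all genes were called. Of these, SOD2, NOX4 and CYBA rose (25.9% of all genes did) and SOD3 fell (30.3% did). SOD3 reached 1 FPKM in all 4 libraries without cytokines and in 1 of the 4 with them. CAT did so in 1 of the 4 without and in 3 of the 4 with them. Their part in the cytokine counts and in the medians below is therefore not read as support. A minimum mean of 5 FPKM left both out. Cytokines then changed 3 of 4 genes without PM10 and 4 of 4 with it, beside 4931 and 5551 of all 8056 genes. Cytokines in the presence of PM10 changed 5 of 6, where 65.4% of all genes were called (25.8% higher and 39.6% lower), with SOD1 added to the 3 genes that rose. PM10 in inflamed hIECs raised 2 of 6, SOD2 and CYBA, where 15.2% of all genes were called (6.22% higher and 9.02% lower). The response of CYBA to PM10 differed between inflamed and normal hIECs, 1 of 6 genes against 6.6% of all genes (2.11% higher and 4.48% lower). The median change of the 6 was 0.14 with cytokines alone and 0.44 with cytokines in the presence of PM10 on the log2 scale, against -0.03 and -0.11 over all tested genes. The 2 cytokine comparisons share no library, and neither do the 2 PM10 comparisons, but a PM10 and a cytokine comparison do. An exact two-sided permutation test of 2 libraries against 2 cannot give a p below 0.333, so the p-values rest on the spread that limma estimates over all genes.

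**Figure D3:**
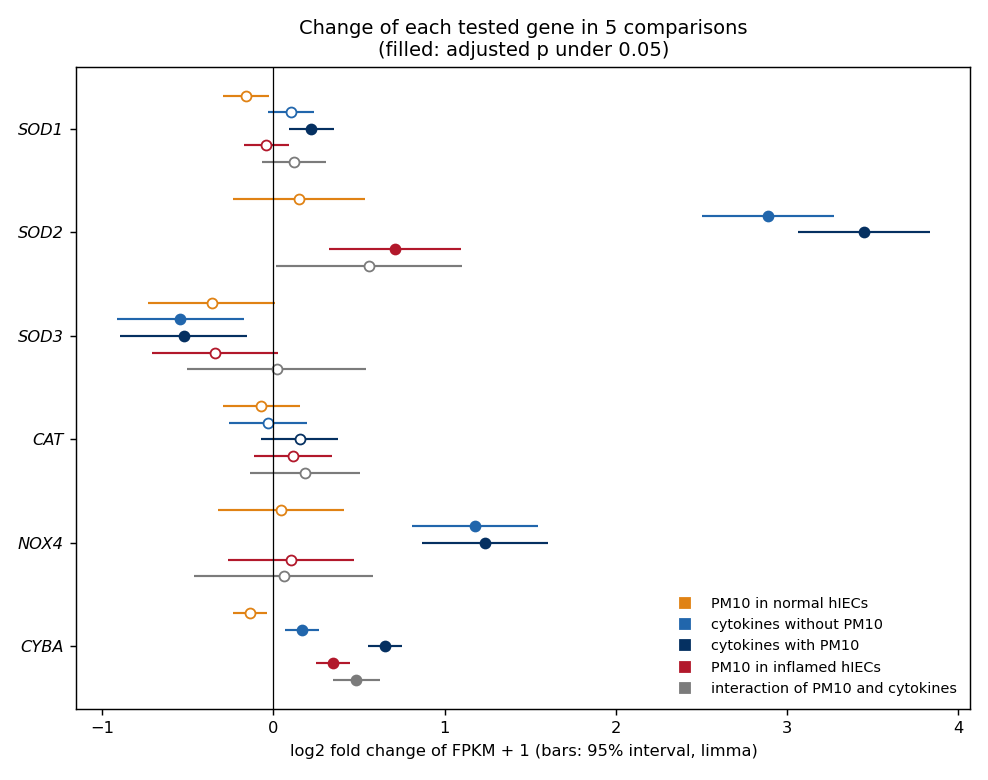
Log2 fold change of FPKM + 1 (horizontal axis) of the 6 tested genes in 5 comparisons, with 95% intervals from limma as bars and filled points for an adjusted p under 0.05. SOD2 lies far to the right with cytokines at 2.89 and 3.45, and CYBA has a filled point for the interaction at 0.49. SOD3 met the minimum for a test through the libraries without cytokines and CAT through those with them. Their points in the cytokine comparisons are not read as support.

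SOD2, the mitochondrial dismutase, had the largest change of the set. The normal libraries had 8.11 and 5.15 FPKM and the normal libraries with PM10 had 7.23 and 7.36. The inflamed libraries had 57.9 and 51.2 FPKM and the inflamed libraries with PM10 had 86.2 and 93.3. The groups with cytokines did not overlap those without, nor did the inflamed groups with and without PM10 overlap each other, whereas both normal groups did. The group mean was 8.23-fold higher with cytokines alone (log2 2.89, SE 0.16, adjusted p = 7.78e-06) and 12.3-fold higher with cytokines in the presence of PM10 (log2 3.45, SE 0.16, adjusted p = 2.32e-06). PM10 raised SOD2 in inflamed hIECs 1.65-fold (log2 0.71, SE 0.16, adjusted p = 0.0298). This call was lost when any of 6 libraries, all but the normal ones, was left out, with log2 values between 0.62 and 0.80 and adjusted p from 0.0548 to 0.143. In normal hIECs the change with PM10 was 0.15 (95% interval -0.24 to 0.53, adjusted p = 0.585). The interaction of 0.56 (SE 0.23) had an adjusted p of 0.199 and was called only without the second normal library, where it was 0.84 (adjusted p = 0.0145).

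The genes that share exon bases with SOD2 moved less. WTAP, a subunit of the RNA methyltransferase complex, had 29.1 and 26.2 FPKM in the normal libraries, 28.3 and 30.6 with PM10, 39.5 and 36.1 in the inflamed libraries and 41.8 and 41.2 in the inflamed libraries with PM10. ACAT2, an enzyme that joins acetyl-CoA units, had 6.27 and 5.10, 5.70 and 6.11, 11.1 and 11.02, and 12.7 and 11.6 FPKM in the same order. SOD2-OT1 was listed at 0 throughout. The second SOD2 identifier was at 0 in 6 libraries and at 0.295 and 0.271 FPKM in the inflamed libraries with PM10, and adding it to the first changed no call.

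SOD1, the cytosolic dismutase, was the most abundant gene of the set and kept between 119 and 153 FPKM. It had 138.9 and 137.8 FPKM in the normal libraries, 128.9 and 118.6 with PM10, 153.4 and 143.9 in the inflamed libraries and 141.9 and 147.1 in the inflamed libraries with PM10. The inflamed groups with and without PM10 overlapped and no other groups did. It rose with cytokines in the presence of PM10 by 0.22 on the log2 scale (SE 0.06, adjusted p = 0.0103). Without PM10 the cytokine difference was 0.10 (95% interval -0.03 to 0.24, adjusted p = 0.161). With PM10 in normal hIECs it was -0.16 (adjusted p = 0.115) and in inflamed hIECs -0.04 (adjusted p = 0.663). The call was lost without the second normal library with PM10 or the second inflamed library with PM10 (adjusted p = 0.0743 and 0.067).

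SOD3, the extracellular dismutase, was low, with lower levels in the libraries with cytokines. Its levels were 1.37 and 2.24 FPKM in the normal libraries, 1.17 and 1.15 with PM10, 0.754 and 1.05 in the inflamed libraries and 0.562 and 0.440 in the inflamed libraries with PM10. No group overlapped another, and the 4 libraries with cytokines lay below the 4 without. SOD3 met the minimum for a test only through the libraries without cytokines, so its calls under that filter are not read as support. With no minimum on any gene, the cytokine change in limma was -0.54 without PM10 (adjusted p = 0.0297). With PM10 it was -0.52 (adjusted p = 0.0294), on a log2 scale that understates changes of low genes. The group means were 0.502 and 0.434 times those without cytokines. In the fit with the minimum, both calls were lost under quantile normalization (adjusted p = 0.0533 and 0.246) and with some libraries left out. The first was lost without the second normal library (-0.32, adjusted p = 0.0941) or the first inflamed library (-0.43, adjusted p = 0.114), and when only those 2 groups were fitted (adjusted p = 0.0537). The second was lost without the first or the second normal library with PM10 (adjusted p = 0.0741 and 0.0704) or the second inflamed library with PM10 (adjusted p = 0.0957). The changes with PM10, -0.36 in normal and -0.34 in inflamed hIECs, had adjusted p-values of 0.179 and 0.185.

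The balance of the 3 dismutase transcripts therefore shifted with the group. FPKM is scaled to transcript length, so levels of different genes can be set side by side. SOD2 was 5.84% and 3.74% of the SOD1 level in the normal libraries, 5.60% and 6.20% with PM10, 37.8% and 35.5% in the inflamed libraries, and 60.7% and 63.5% in the inflamed libraries with PM10. Summed over the 3 genes, dismutase transcripts came to 148 and 145 FPKM in the normal libraries and 137 and 127 with PM10. The sum was 212 and 196 in the inflamed libraries and 229 and 241 with both treatments. SOD3 stayed under 1.6% of this sum everywhere, at most 1.54% in the second normal library.

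**Figure D4:**
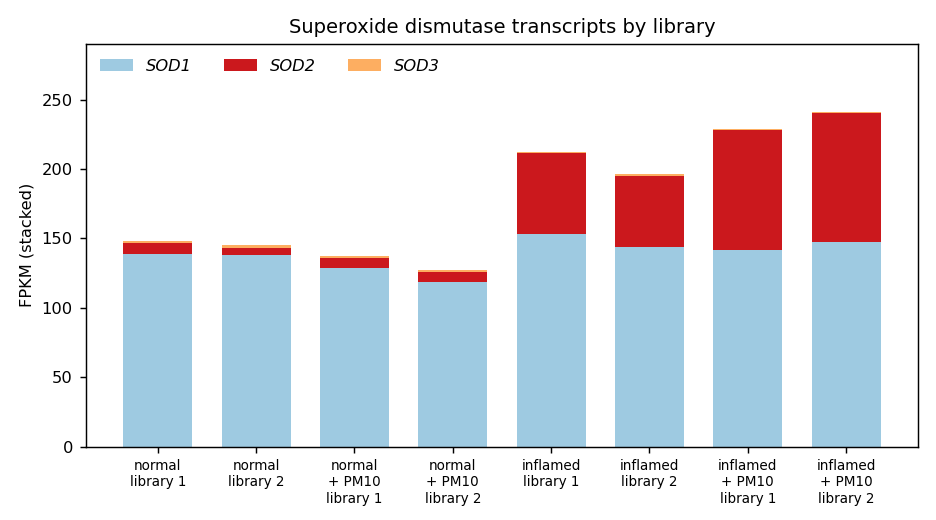
FPKM of SOD1, SOD2 and SOD3 stacked in each of the 8 libraries, with the axis from 0. The SOD1 bars stay between 119 and 153 FPKM, while the SOD2 bars grow from at most 8.11 FPKM without cytokines to between 51.2 and 93.3 with them, and SOD3 is barely visible.

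The genes that supply copper to SOD1 and SOD3 moved in different directions. With cytokines alone 2 of the 4 rose, 1 fell and 1 was not called, and in the presence of PM10 3 rose and 1 fell, where 56.2% and 65.4% of all tested genes were called. CCS, the chaperone that loads copper into SOD1, fell by -0.85 (SE 0.05, adjusted p = 1.47e-05), from 30.3 and 29.5 FPKM in the normal libraries to 16.2 and 16.1 in the inflamed libraries. With PM10 in addition it was at 12.9 and 12.5 FPKM, a further fall of -0.33 (adjusted p = 0.00965). SLC31A1, the copper importer of the plasma membrane, rose by 0.50 with cytokines (adjusted p = 0.000292) and by 0.24 with PM10 in inflamed hIECs (adjusted p = 0.0385). ATOX1, the chaperone that hands copper to the Golgi pumps, rose by 0.45 (adjusted p = 0.000323), from 95.4 and 94.3 to 128 and 132 FPKM. PM10 in normal hIECs changed 0 of the 4 in limma at an adjusted and 0 at an unadjusted p under 0.05, where 9.23% of all tested genes were called.

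CAT, the catalase gene, was near 1 FPKM in all groups. Its levels were 0.891 and 1.05 FPKM in the normal libraries, 0.898 and 0.851 with PM10, 0.855 and 1.00 in the inflamed libraries and 1.16 and 1.02 in the inflamed libraries with PM10. The inflamed libraries with PM10 lay just above the inflamed libraries and the normal libraries with PM10, and all other groups overlapped. CAT reached the minimum for a test in 1 library without cytokines and in 3 with them. Its tests with cytokines are therefore not read as support. Neither PM10 comparison of it was called.

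Most other genes that remove peroxides were more abundant than CAT, and they were mixed in direction. Of the 18 on the list 15 were tested, GPX2 and GPX6 were listed at 0 in all libraries, and GPX5 was under the minimum. With cytokines alone 7 of the 15 rose and 4 fell, with a median change of 0.02, and with cytokines in the presence of PM10 6 rose and 4 fell, where 56.2% and 65.4% of all tested genes were called. PM10 raised 2 of the 15 in normal hIECs, where 9.23% of all tested genes were called, and in inflamed hIECs 2 rose and 2 fell, where 15.2% were called. PRDX1, a cytosolic peroxiredoxin, rose most, from 166 and 149 FPKM in the normal libraries to 392 and 374 in the inflamed libraries (log2 1.28, SE 0.06, adjusted p = 2.90e-06). PRDX2, its close relative in the cytosol, fell by -0.79 (adjusted p = 5.85e-06), from 149 and 147 to 84.8 and 86.2 FPKM. GPX7, a peroxidase of the endoplasmic reticulum, fell by -0.65 (adjusted p = 0.000304). TXNRD1, the cytosolic thioredoxin reductase, rose with cytokines by 0.80 (adjusted p = 1.93e-05) and with PM10 both in normal hIECs (0.35, SE 0.05, adjusted p = 0.0135) and in inflamed hIECs (0.32, SE 0.05, adjusted p = 0.00984). Its levels were 16.8 and 15.5 FPKM, 21.1 and 20.4, 28.5 and 29.0, and 36.4 and 36.2 in the order normal, normal with PM10, inflamed and inflamed with PM10, with no overlap between groups. Of the mitochondrial members, TXN2, a thioredoxin, rose with PM10 in normal hIECs (0.19, adjusted p = 0.0466) and TXNRD2, its reductase, fell with PM10 in inflamed hIECs (-0.37, adjusted p = 0.0491). PRDX3, the mitochondrial peroxiredoxin that shares its compartment with SOD2, was chosen after its values were seen. It had 41.8 and 39.6 FPKM in the normal libraries and 40.3 and 37.2 with PM10. The inflamed libraries had 38.9 and 37.9 FPKM and the inflamed libraries with PM10 had 43.7 and 41.4. No comparison of PRDX3 was called. In limma its unadjusted p was 0.0435 for PM10 in inflamed hIECs and 0.0355 for the interaction.

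CYBA, which encodes p22phox, rose with cytokines and had the clearest difference in its response to PM10. It had 48.5 and 47.6 FPKM in the normal libraries and 43.6 in each of the normal libraries with PM10. It had 54.6 and 53.5 FPKM in the inflamed libraries and 69.3 and 68.9 in the inflamed libraries with PM10. No group overlapped another. PM10 raised it 1.28-fold in inflamed hIECs (log2 0.35, SE 0.04, adjusted p = 0.0028). In normal hIECs the change was -0.14 (SE 0.04, unadjusted p = 0.0132, adjusted p = 0.0831), which was called as a fall under median centring (-0.19, adjusted p = 0.0309) and quantile normalization (-0.17, adjusted p = 0.0411). The difference between these responses, the interaction, was 0.49 (95% interval 0.35 to 0.63, adjusted p = 0.00631). The cytokine change was 0.17 without PM10 (SE 0.04, adjusted p = 0.0118) and 0.65 with it (SE 0.04, adjusted p = 9.88e-06). The first of these was lost without the first inflamed library (0.15, adjusted p = 0.0752) and when only the normal and inflamed libraries were fitted (adjusted p = 0.0622). PTPRC, 1 of 10 leukocyte markers, was at 0.524 and 0.345 FPKM in the normal libraries, 0.310 and 0.253 with PM10 and 0 with cytokines. ITGB2 was at 0.189 and 0, 0.488 and 0, 0 and 0, and 0.223 and 0.327 FPKM from normal to both treatments. CD68, a lysosomal gene best known from macrophages, was the most abundant of the 10 by mean over the 8 libraries. It was at 0.503 and 0.510 FPKM in the normal libraries and 0.308 and 0 with PM10. CD68 was at 0.399 and 0.333 FPKM in the inflamed libraries and at 1.11 and 1.83 in the inflamed libraries with PM10. It reached the minimum for a test only through the latter, so no test of it is given, and the other 9 were under the minimum. The summed level of that list was 1.22 and 0.855 FPKM in the normal libraries, 1.11 and 0.253 with PM10, 0.399 and 0.333 in the inflamed libraries, and 1.34 and 2.16 with both treatments. MPO, LYZ, SPI1, FCGR3A, CSF1R, ITGAM and CD14, among them the defining markers of phagocytes, were at 0 in all 8 libraries. The part of such cells in the change of CYBA was not tested.

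NOX4, the oxidase that pairs with p22phox and is active without cytosolic organizers, rose with cytokines, and its changes with PM10 did not pass the test. It had 14.995 and 9.87 FPKM in the normal libraries, 12.02 and 13.2 with PM10, 29.3 and 28.3 in the inflamed libraries and 31.8 and 30.3 in the inflamed libraries with PM10. All 4 libraries with cytokines lay above all 4 without, the normal groups overlapped, and the inflamed libraries with PM10 lay just above the inflamed libraries. The rise was 2.32-fold without PM10 (log2 1.18, SE 0.16, adjusted p = 0.000555) and 2.46-fold with it (log2 1.24, SE 0.16, adjusted p = 0.000333). With PM10 the change was 0.05 in normal hIECs (95% interval -0.32 to 0.41, adjusted p = 0.878) and 0.11 in inflamed hIECs (95% interval -0.26 to 0.47, adjusted p = 0.685).

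CYBB, the phagocyte oxidase, and DUOX2, the dual oxidase of intestinal epithelium, were listed at 0 in every library. The lowest values above 0 ranged from 0.164 to 0.228 FPKM over the libraries, so a level under this could not be seen. The genes that partner these oxidases were mostly at 0 as well. Of the 14 other genes of the NADPH oxidase complexes, NOX1, NOX3 and NOX5 (catalytic subunits), DUOXA1 and DUOXA2 (maturation factors of the dual oxidases), NCF1 and NCF4 (cytosolic subunits of the phagocyte oxidase) and NOXO1 (the organizer of NOX1) were listed at 0 throughout, and DUOX1 was at 0.181 FPKM in 1 normal library only. NOXA1, the activator of NOX1, was at 2.80 and 2.61 FPKM in the normal libraries, 3.01 and 2.86 in the normal libraries with PM10, 0.430 and 0.281 in the inflamed libraries and 0.430 and 0.306 in the inflamed libraries with PM10. It reached the minimum for a test only through the libraries without cytokines, so no test of it with cytokines is given. Of the other 3 genes tested, cytokines alone changed 0 in limma, also at an unadjusted p under 0.05, where 56.2% of all tested genes were called. In the presence of PM10 1 of these 3 rose and 1 fell, where 65.4% were called. In limma PM10 changed 0 of the 4 in normal hIECs, also at an unadjusted p under 0.05, and 0 of the 4 in inflamed hIECs, where 2 had an unadjusted p under 0.05, beside 9.23% and 15.2% of all tested genes called.

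NOS2, the cytokine-inducible nitric oxide synthase, was listed at 0 in every library, including all 4 with IFNγ and TNFα. NOS3, the endothelial form, was under the minimum for a test. It had 0.274 and 0.542 FPKM in the normal libraries, 0.343 and 0.244 with PM10, 0.518 and 0.378 in the inflamed libraries, and was listed at 0 in both inflamed libraries with PM10. These levels are near the lowest value above 0, so no fold is given. ATG9B, which overlaps NOS3 on the other strand, was at 0 in every library. The endothelial markers PECAM1, VWF, CDH5 and KDR were at 0 throughout. EMCN, a membrane glycoprotein and the most abundant of the 7, fell with each treatment, at 28.9 and 23.8 FPKM in the normal libraries, 16.6 and 16.2 with PM10, 6.45 and 6.15 in the inflamed libraries and 2.83 and 2.57 with both. The summed level of this list followed EMCN, from 29.7 and 24.6 FPKM in the normal libraries to 3.18 and 3.06 with both treatments.

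Genes that feed and receive nitric oxide signaling were mostly above the minimum for a test. Of the 18 on the list 14 were tested, and NOS1, NOSTRIN and ARG1 were listed at 0 throughout. GCH1, which makes the first step toward the synthases' cofactor tetrahydrobiopterin, was at 0.825 and 0.943 FPKM in the normal libraries, 0.797 and 1.13 in the normal libraries with PM10, 7.06 and 6.95 in the inflamed libraries and 7.69 and 7.11 in the inflamed libraries with PM10. It reached the minimum in all 4 libraries with cytokines and in 1 without, so no test of it with cytokines is given. Of the other 13, 4 rose and 5 fell with cytokines alone, and in the presence of PM10 6 rose and 4 fell, where 56.2% and 65.4% of all tested genes were called. SLC7A1, an importer of arginine, rose by 0.87 with cytokines alone (adjusted p = 2.93e-05). ASS1, which remakes arginine from citrulline, fell by -1.08 (SE 0.06, adjusted p = 5.75e-06), from 89.0 and 88.2 to 39.7 and 43.3 FPKM. GUCY1A1 and GUCY1B1, the subunits of the receptor of nitric oxide, rose with cytokines alone by 0.86 and 0.67 (adjusted p = 0.000614 and 0.000155). In the presence of PM10 the cytokine change was 0.19 for GUCY1A1, which was not called (adjusted p = 0.183), and 0.69 for GUCY1B1 (adjusted p = 9.33e-05). Both fell with PM10 in inflamed hIECs by -0.44 and -0.41 (adjusted p = 0.0452 and 0.0105). In inflamed hIECs PM10 raised 2 of the 14 and lowered 3, where 15.2% of all tested genes were called. In normal hIECs 1 rose and 2 fell with PM10, where 9.23% were called. CAV1, the caveolin that binds NOS3, fell by -0.70 (SE 0.08, adjusted p = 0.00405), from 22.6 and 19.6 to 12.7 and 12.4 FPKM, and GUCY1B1 fell by -0.43 (adjusted p = 0.0141). In inflamed hIECs the change of CAV1 with PM10 was -0.13 and was not called. The interaction in limma was called for CAV1 (0.58, adjusted p = 0.0273) and ASS1 (-0.44, adjusted p = 0.0267), where 6.6% of all tested genes were called.

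Of 9 other oxidases that release hydrogen peroxide or superoxide 7 were tested, and XDH and AOX1, the xanthine and aldehyde oxidases, were listed at 0 throughout. With cytokines alone 3 rose and 1 fell, where 56.2% of all tested genes were called. MAOB, the monoamine oxidase of the outer mitochondrial membrane, rose from 2.90 and 2.47 FPKM in the normal libraries to 9.47 and 9.39 in the inflamed libraries (log2 1.50, SE 0.08, adjusted p = 5.95e-06). With both treatments it was at 3.83 and 4.25 FPKM, a fall of -1.05 against inflamed hIECs (SE 0.08, adjusted p = 0.000546). Its relative MAOA rose with PM10 in inflamed hIECs (0.36, adjusted p = 0.0225), from 1.90 and 1.77 to 2.61 and 2.66 FPKM. The interaction in limma was called for MAOB (-0.90, adjusted p = 0.00722) and MAOA (0.49, adjusted p = 0.0422), where 6.6% of all tested genes were called. ERO1A, which oxidizes protein disulfide isomerase in the endoplasmic reticulum, rose with cytokines by 0.95 (adjusted p = 1.73e-05). SMOX, spermine oxidase, fell by -0.51 (adjusted p = 0.00156). PM10 in normal hIECs changed 0 of the 7 in limma at an adjusted p under 0.05, where 9.23% of all tested genes were called, and 1 had an unadjusted p under 0.05.

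**Figure D5:**
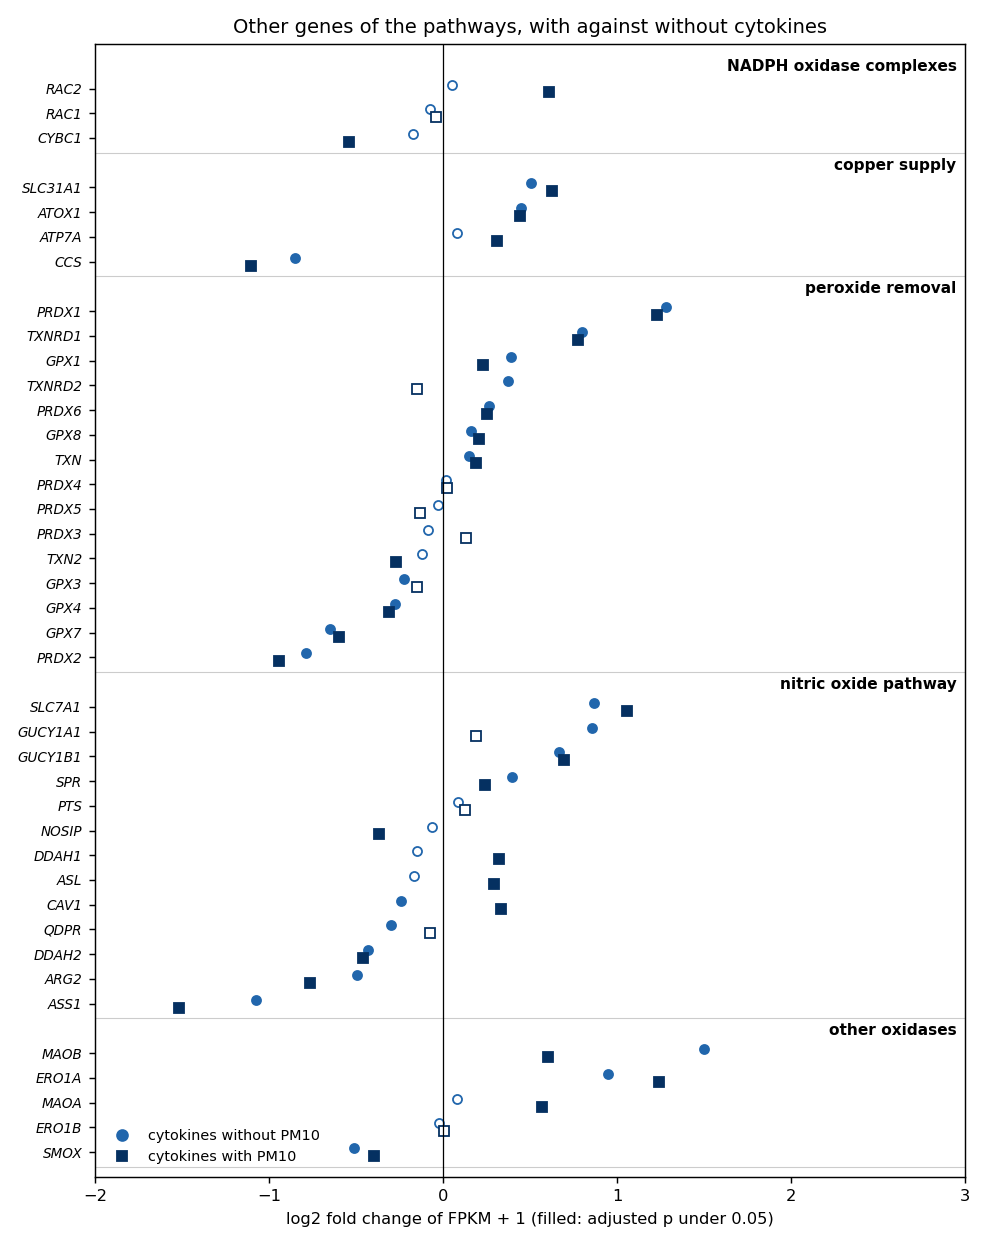
Log2 fold change of FPKM + 1 (horizontal axis) of tested pathway genes with against without cytokines, circles without and squares with PM10, filled where the adjusted p was under 0.05, without genes that reached the minimum only through the libraries with or only through those without cytokines. MAOB at 1.50 lies farthest to the right among the circles and ASS1 at -1.08 farthest to the left.

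The genes with the nearest profile over the 8 libraries are given for SOD2, NOX4, CYBA and SOD3. They were found among 8056 genes with a mean of at least 5 FPKM. Nearness was the root mean square difference of log2(FPKM + 1) from the normal mean. For SOD2 they were SAMD9L (0.255), CXCL6 (0.260) and CD82 (0.265), all less close than the neighbors of the other genes. CD82, a membrane tetraspanin, had group means of 7.51, 9.95, 53.2 and 78.5 FPKM from normal to inflamed with PM10, beside 6.63, 7.29, 54.6 and 89.7 for SOD2. For NOX4 they were PDGFC (0.088), PAPSS2 (0.110) and PRDX1 (0.116). PDGFC, a platelet-derived growth factor, had 28.2, 30.5, 61.8 and 69.0 FPKM in the same order, beside 12.4, 12.6, 28.8 and 31.1 for NOX4. For CYBA they were BORCS8 (0.065), ARSB (0.069) and HSPB1 (0.070), and for SOD3 METRN (0.087), CCDC74A (0.091) and FBLN1 (0.098). This scale understates changes of low genes such as SOD3. Its means were 1.80 FPKM in normal hIECs and 0.501 in inflamed hIECs with PM10, beside 18.8 and 10.2 for METRN. HSPB1, a small heat shock protein, had 546, 512, 616 and 726 FPKM, lowest with PM10 alone and highest with both treatments like CYBA.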

How the data were processed

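RNA-seq covered 8 libraries of 2D hIECs in 4 groups of 2. Per the labels and the methods of the study, the authors took RNA of integrity number above 7.5, made unstranded poly-A libraries, sequenced 2 × 100 bases, trimmed with Cutadapt 3.7 and Sickle 1.33, aligned to GRCh38 with HISAT2 2.2.1 and deposited FPKM from StringTie 2.2.0. The annotation release is not given in the sources used here. Read counts were not used, so the depth is seen only from the smallest FPKM above 0 in a library, 0.164 to 0.228, which 27 to 43 genes shared.

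Values were taken as log2(FPKM + 1). A gene was tested if it reached 1 FPKM in 2 or more libraries, which left 14206 genes. They were fitted in limma 3.58.1 (R 4.3.3) with a trend on the mean, all 8 libraries together and no covariate. Benjamini-Hochberg adjustment ran over the tested genes in each of 5 comparisons, with calls under 0.05. Replicate libraries differed by a median SD of 0.085 (normal), 0.053 (normal with PM10), 0.052 (inflamed) and 0.049 (both treatments), on the log2 scale. Mitochondrial DNA took 17.0% and 24.2% of FPKM in the normal libraries and 15.5% to 20.4% elsewhere.

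The genes, the 63 pathway genes and the markers were chosen with earlier results of these data known. From each pathway list the text names up to 4 genes called for cytokines without PM10 and up to 2 called for PM10 in inflamed and in normal hIECs, by size of change, and the genes at 0. From each marker list it names the most abundant gene and those at 0. KRT18, KRT19, LGR5, PTPRC, ITGB2, the epithelial genes under the minimum and the other mesenchymal genes were added after their values were seen. Some genes of the lists are not reported here by name. Of the identifiers, 99.5% are in GENCODE release 44. Promoter windows are from RefSeq on GRCh38.p14, with 8 of 10 genes matched. Alternatives covered pseudocount, filters, scaling, the groups fitted, the trend, the replicate number as a block, both SOD2 identifiers summed (added after seeing the data) and each library left out. Tables and plots used Python 3.11.15, pandas 2.3.3 and matplotlib 3.10.9.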

Additional observations from a re-analysis of the deposited data

Results flagged for a closer look

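CYBA was the 1 gene of the set for which a test of the difference itself separated the response to PM10 in inflamed hIECs from that in normal hIECs. The interaction was 0.49 on the log2 scale (SE 0.06, adjusted p = 0.00631 in limma), with changes of 0.35 in inflamed and -0.14 in normal hIECs. Both inflamed libraries with PM10 lay above both inflamed libraries, and both normal libraries with PM10 lay below both normal libraries. The call held under each of the 17 alternatives run, with values between 0.47 and 0.53 and adjusted p of at most 0.0413.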

How the results depend on the processing

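SOD2 and NOX4 rose with cytokines, without and with PM10, under each of the 18 alternatives run, and CYBA rose with PM10 in inflamed hIECs under the same 18. Of 524 values of single genes under the alternatives, 482 kept their direction and their side of the threshold, 18 lost a call, 7 gained one and 17 changed sign, all of the last uncalled. The cause of these changes was not tested. For PM10 in normal hIECs, 1 of 6 genes (CYBA) was called under median centring and 1 (CYBA) under quantile normalization in place of 0. Beside these, 1312 and 1261 of all 14206 genes were called. NOX4 there turned to -0.00945 under median centring and to -0.022 under quantile normalization, and with each library left out it ranged from -0.23 to 0.32 and SOD2 from -0.14 to 0.43. For cytokines without PM10, 2 of 6 genes (NOX4 and SOD2) in place of 4 were called when the fit held only the groups compared, beside 7008 of all 14206. Without inflamed replicate 1, SOD3 was -0.43 and CYBA 0.15. CAT there was 0.12 under quantile normalization and -0.089 to 0.027 with each library left out. For cytokines with PM10, limma after quantile normalization called 5 of 6 genes, beside 9151 of all 14206. CAT (0.37, adjusted p = 0.0172) was among them and SOD3 was not. CAT reached 1 FPKM in 1 library without cytokines and in 3 with them, so this call is not read as support. Over the 18 alternatives, SOD1 for cytokines with PM10 ranged from 0.16 to 0.28 and SOD2 for PM10 in inflamed hIECs from 0.62 to 0.80. SOD1 with PM10 in inflamed hIECs was 0.0059 under quantile normalization and -0.086 to 0.0054 with each library left out. For the interaction SOD2 ranged from 0.28 to 0.84 over the 17 alternatives. SOD3 there was -0.17 with a pseudocount of 0.1, -0.087 after rescaling over nuclear genes and -0.21 to 0.25 with each library left out, and NOX4 -0.22 to 0.34. Without the filter on low values NOS3 was called lower for cytokines with PM10 and for PM10 in inflamed hIECs. This gave 6 and 3 of 7 genes, beside 10475 and 1878 of all 21400. The levels of NOS3 are near the lowest value above 0, so these calls are not read as support.

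With the replicate number as a block the counts of genes called stayed at 0, 4, 5, 2 and 1, and the block changed no call. Beside all but the last of these counts, 1051, 7957, 9264 and 1966 of all 14206 genes were called. The deviations of libraries with the same number correlated between -0.0015 and 0.079. Each correlation rests on 2 libraries per group, so whether libraries with the same number shared a batch cannot be told. Over all tested genes, PM10 in normal hIECs called 1311 genes in the fit reported, 23 with only the groups compared, and 194 to 2627 with each library left out. PM10 in inflamed hIECs called 2165, and 675 to 742 with 1 of its own 4 libraries left out. The interaction called 937, and 263 to 330 with 1 library of the groups other than normal left out. With a mean of at least 5 FPKM, cytokines called 4931 of 8056 genes without PM10 and 5551 with it. The share of higher calls for PM10 in normal hIECs was 59.7%, and 42.9% under median centring, 49.8% under quantile normalization and 75.4% after rescaling over nuclear genes. For the interaction it was 32%, and 45.7% under median centring and 46.6% under quantile normalization. For PM10 in inflamed hIECs it was 40.8%, and 50.8% under quantile normalization. Depth limits NOS3, CYBB, DUOX2 and NOS2, and an arm left with 1 library is assumed to vary like the others. The filter on a mean of 5 FPKM gave no value for SOD3 and CAT.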
